A study of Mus musculus with 10 samples.

Results

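The genes described here are 10 markers of preadipocytes, mesenchymal progenitors and fibroblasts: Dlk1, Sfrp2, Pdgfra, Pdgfrb, Ly6a, Thy1, Cd34, Cd44, S100a4 and Vim. They were found by symbol in a table of gene counts, which held all 10 among its 24640 symbols. The counts come from RNA sequencing of brown adipocytes, a type of fat cell able to turn stored lipid into heat, of the mouse strain C57BL/6. There were 10 libraries in 5 groups of 2: BML-260 for 3 days, BML-260 for 1 day, ISO listed at 1 day, DMSO for 3 days and DMSO for 1 day. BML-260 is known as an inhibitor of Dusp22, a phosphatase, DMSO is the solvent used as its control, and the labels do not spell ISO out. No group carries a named mutation or transgene, and the labels state no dose, sex or age, nor whether the cells were primary cultures or a cell line. They also leave out whether both libraries of a group came from separate cultures or animals. The p-values therefore cover the spread between these libraries only, and that spread may be technical.

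Libraries held 16955918 to 21185675 counts. Of all genes 15212 passed a minimum on counts and were tested, among them 9 of the 10 markers. Cd34, with 1 to 7 counts in a library, was not tested. Levels are given as CPM, counts relative to the scaled size of the library. A gene is said to have risen or fallen where the Benjamini-Hochberg adjusted p of edgeR's quasi-likelihood test, over all genes tested, was under 0.05. Fat cell genes were abundant, with averages over all libraries of 6291 CPM for Fabp4, the fatty acid binding protein of fat cells, and 931.4 CPM for Adipoq, adiponectin. Ucp1, the uncoupling protein that defines brown fat, averaged 31.8 CPM with BML-260 and 12.7 CPM with DMSO at 3 days, and 13.95 CPM with BML-260, 24.8 CPM with ISO and 5.58 CPM with DMSO at 1 day.

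A fat cell arises from a fibroblast-like precursor, which divides, commits and then exchanges its surface proteins and matrix for the machinery of lipid storage. Dlk1, also called preadipocyte factor 1, is a membrane protein whose shed outer part holds back that step and which is lost as fat cells mature. Sfrp2 is a secreted protein that binds Wnt ligands, themselves inhibitors of fat cell formation. Pdgfra and Pdgfrb are the receptor tyrosine kinases for platelet-derived growth factors and mark progenitors and mural cells. Ly6a (Sca-1), Thy1 (CD90) and Cd34 are surface proteins by which adipose progenitors are sorted, and Cd44 is the receptor for hyaluronan. S100a4, a small calcium-binding protein, is used as a fibroblast marker. Vim, the intermediate filament vimentin, is made by mesenchymal cells and also by fat cells, where it surrounds the lipid droplet.

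The promoters of 4 of the genes are shown because Dlk1 and Sfrp2 had the lowest fold changes among the markers with over 100 counts in most libraries, while S100a4 and Vim were the most abundant per length. Each sequence is the 250 bases before the transcription start in RefSeq's table for GRCm38.p6, written 5′ to 3′ on the gene's strand, with the capitals marking the letters TATAAA or CCAAT on either strand.
Dlk1 (chr12:109452573-109452822, plus strand): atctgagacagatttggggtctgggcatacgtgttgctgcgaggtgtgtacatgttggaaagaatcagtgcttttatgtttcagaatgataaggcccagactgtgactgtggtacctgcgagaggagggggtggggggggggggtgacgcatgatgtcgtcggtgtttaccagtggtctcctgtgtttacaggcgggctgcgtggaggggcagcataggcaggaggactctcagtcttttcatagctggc
Sfrp2 (chr3:83766071-83766320, plus strand): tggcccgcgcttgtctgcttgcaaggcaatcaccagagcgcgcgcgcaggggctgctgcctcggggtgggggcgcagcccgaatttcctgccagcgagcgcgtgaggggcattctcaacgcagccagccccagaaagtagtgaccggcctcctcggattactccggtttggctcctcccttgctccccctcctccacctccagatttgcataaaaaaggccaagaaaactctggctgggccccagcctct
S100a4 (chr3:90603520-90603769, plus strand): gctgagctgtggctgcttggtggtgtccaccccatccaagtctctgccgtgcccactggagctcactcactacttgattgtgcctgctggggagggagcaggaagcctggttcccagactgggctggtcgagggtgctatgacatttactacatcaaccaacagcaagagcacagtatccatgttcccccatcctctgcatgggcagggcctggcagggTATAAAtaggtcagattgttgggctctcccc
Vim (chr2:13574061-13574310, plus strand): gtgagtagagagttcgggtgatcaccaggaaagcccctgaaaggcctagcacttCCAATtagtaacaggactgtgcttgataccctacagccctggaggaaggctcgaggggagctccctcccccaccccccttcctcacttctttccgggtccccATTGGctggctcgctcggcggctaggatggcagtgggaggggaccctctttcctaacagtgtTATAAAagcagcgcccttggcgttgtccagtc
The table held a promoter for 7 of the 10 genes, these 4 and Pdgfra, Cd34 and Cd44. TATAAA stood 31 to 26 bases before the start of S100a4 and 32 to 27 bases before that of Vim, so in 2 of 7 promoters, against 12.4% of 32851 promoters of the same length. CCAAT, or its reverse complement ATTGG, stood in Vim alone of the 7, at 196 to 192 and 94 to 90 bases before the start, against 33.8% of all promoters. None of the 7 held TGANTCA (AP-1, 6.75% of all promoters), GGAATG (TEAD, 12.6%), GGGCGG (Sp1, 32.7%) or the SRF CArG box (1.47%), each searched on both strands. These are matches of letters only, and TATAAA and CCAAT were searched after the sequences had been seen.

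On GRCm38 with the GENCODE M21 annotation the genes lie apart from each other, except that 2 pairs share a chromosome: S100a4 at chr3:90603771-90606045 with Sfrp2 at chr3:83766321-83774316, and Cd44 at chr2:102811141-102901665 with Vim at chr2:13573927-13582826. The promoter window printed above for Vim lies inside these bounds, because RefSeq places the start of Vim later than GENCODE does. Dlk1 lies at chr12:109452823-109463336, Pdgfra at chr5:75152292-75198215, Pdgfrb at chr18:61045150-61085061, Ly6a at chr15:74994877-74998031, Thy1 at chr9:44043384-44048579 and Cd34 at chr1:194938819-194961279. Exons of Pdgfra, S100a4, Sfrp2 and Cd34 overlap those of other annotated transcripts, and Ly6a belongs to a family of similar genes, so that reads of these 5 may be shared in a way the counts cannot show.

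The 10 genes differed widely in abundance, and between genes levels are given per length. Averaged over all libraries, Vim reached 258.8 CPM per kb of exon and S100a4 79.4 CPM per kb. Next came Pdgfrb at 12.6, Cd44 at 7.18, Dlk1 at 5.73, Sfrp2 at 5.20, Pdgfra at 3.94 and Ly6a at 2.78 CPM per kb. The remaining sorting markers were scarce, Thy1 at 0.234 and Cd34 at 0.0224 CPM per kb. Vim made up 80.4% to 84.4% of the summed CPM of the 10 genes in a library, so that the sum follows Vim. That sum was 1441 to 1519 CPM with BML-260 and 1727 to 1729 CPM with DMSO at 3 days, and 1023 to 1042 CPM with BML-260, 1767 to 1945 CPM with ISO and 1268 to 1323 CPM with DMSO at 1 day. Without Vim the other 9 genes summed to 233.9 to 237.6 CPM with BML-260 and 317.6 to 338.5 CPM with DMSO at 3 days. At 1 day they summed to 166.3 to 175.6 CPM with BML-260, 293.5 to 325.1 CPM with ISO and 209.4 to 213.6 CPM with DMSO. ISO then overlapped DMSO at 3 days. In bulk RNA, fewer cells of a type and less RNA per cell cannot be told apart.

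**Figure D1:**
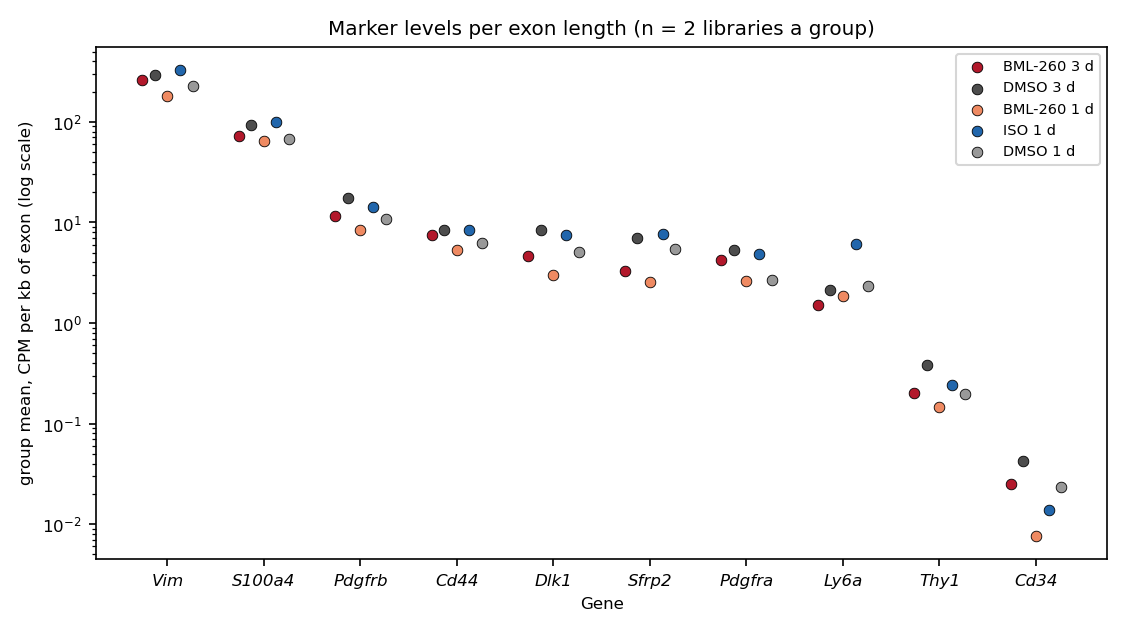
Mean level of each marker in each group (n = 2 libraries), in CPM per kb of exon on a log axis, with genes in the order of their mean over all libraries. Vim lies highest at 181.7 to 326.1 CPM per kb and Cd34 lowest at 0.00765 to 0.0421 CPM per kb.

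The first comparison asked what BML-260 did to these markers beside its solvent. At 3 days 8 of the 9 tested markers fell, all but Ly6a, and none rose, where 18.3% of all genes tested fell and 17.3% rose. Their median log2 fold change was -0.50, against -0.016 over all genes tested. At 1 day 5 of 9 fell, namely Dlk1, Sfrp2, Pdgfrb, Cd44 and Vim, and none rose, where 8.62% of all genes fell and 9.32% rose. The median was -0.34, against -0.0010 over all genes. The markers were chosen with earlier results of these data known, so these contrasts with all genes are not free of that choice. Without any 1 of 3 libraries (BML-260 3 days replicate 2, or either library of DMSO 3 days) the count at 3 days was 5, as Thy1, Cd44 and Vim missed the threshold. Dlk1, Sfrp2, Pdgfra, Pdgfrb and S100a4 fell at 3 days whichever library was left out.

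The secreted and shed regulators, Sfrp2 and Dlk1, had log2 fold changes of -1.10 to -0.79 over both times. Sfrp2 had 6.91 and 7.40 CPM with BML-260 at 3 days, against 13.7 and 16.3 CPM with DMSO. Its log2 fold change was -1.06 (edgeR: SE 0.12, adjusted p = 7.7e-08), to 0.478 of the DMSO level. At 1 day it had 5.99 and 5.12 CPM with BML-260, against 11.7 and 12.0 CPM with DMSO, with a log2 fold change of -1.10 (edgeR: SE 0.13, adjusted p = 1.1e-06). Every library of BML-260 thus lay below every library of DMSO, also across the times. Dlk1 had 26.5 and 26.1 CPM with BML-260 at 3 days, against 41.1 and 54.0 CPM with DMSO, and its log2 fold change was -0.85 (edgeR: SE 0.11, adjusted p = 4.9e-07). At 1 day it had 17.1 and 16.5 CPM with BML-260, against 25.2 and 32.9 CPM with DMSO, and the log2 fold change was -0.79 (edgeR: SE 0.13, adjusted p = 4.4e-05). The groups did not overlap at either time, although the libraries of DMSO stood farther apart from each other than those of BML-260, and BML-260 at 3 days overlapped DMSO at 1 day.

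The receptors for platelet-derived growth factors had smaller log2 fold changes. Pdgfrb had 63.8 and 64.0 CPM with BML-260 at 3 days, against 94.0 and 98.3 CPM with DMSO, with a log2 fold change of -0.59 (edgeR: SE 0.055, adjusted p = 3.4e-09). At 1 day it had 47.0 and 45.8 CPM with BML-260, against 58.0 and 59.7 CPM with DMSO, with a log2 fold change of -0.34 (edgeR: SE 0.061, adjusted p = 2e-04). Its groups were well apart at both times. Pdgfra had 42.8 and 42.4 CPM with BML-260 at 3 days, against 53.9 and 52.8 CPM with DMSO, and a log2 fold change of -0.32 (edgeR: SE 0.064, adjusted p = 0.00028). At 1 day the libraries overlapped, with 27.5 and 24.9 CPM with BML-260 and 26.2 and 27.8 CPM with DMSO. There the log2 fold change was -0.045 (edgeR: SE 0.078, adjusted p = 0.75), with a 95% interval of -0.20 to 0.11. Of their ligands, Pdgfa was higher with BML-260, by 0.32 (edgeR: SE 0.094, adjusted p = 0.0087) on the log2 scale at 3 days and 0.30 (edgeR: SE 0.098, adjusted p = 0.031) at 1 day. Pdgfc was at 0.032 and -0.24 without passing the test, and the other 2 ligands of the list were too scarce to be tested.

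Among the surface markers used for sorting, values were low and their errors wide. Thy1 rested on 10 and 13 counts with BML-260 at 3 days, against 21 and 24 counts with DMSO, which is 0.548 and 0.654 CPM against 1.07 and 1.24 CPM. Its log2 fold change of -0.93 (edgeR: SE 0.36, adjusted p = 0.049) lay at the threshold and missed it without any 1 of the 4 libraries, and also with DESeq2's size factors or with no filter on low counts. At 1 day, with 6 and 10 counts against 11 and 10, it was -0.40 (edgeR: SE 0.46, adjusted p = 0.63) and did not pass. Ly6a had 1.81 and 1.81 CPM with BML-260 at 3 days, against 2.34 and 2.79 CPM with DMSO. Both libraries of BML-260 lay below both of DMSO, but the log2 fold change of -0.50 (edgeR: SE 0.23, adjusted p = 0.099) did not pass, nor did that of -0.34 (edgeR: SE 0.23, adjusted p = 0.33) at 1 day. Cd34 had 3 and 4 counts with BML-260 and 7 and 5 with DMSO at 3 days, and 1 and 1 with BML-260, 1 and 3 with ISO and 4 and 2 with DMSO at 1 day. At such counts no difference in Cd34 can be read.

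Cd44, by contrast, was well measured and moved little. It had 54.2 and 48.0 CPM with BML-260 at 3 days, against 57.5 and 57.8 CPM with DMSO, a log2 fold change of -0.18 (edgeR: SE 0.062, adjusted p = 0.029). At 1 day it had 37.1 and 34.8 CPM with BML-260, against 43.1 and 41.0 CPM with DMSO, a log2 fold change of -0.23 (edgeR: SE 0.069, adjusted p = 0.023). Both calls were near the threshold, and without any 1 of 3 of the 4 libraries compared they were lost, with edgeR adjusted p of up to 0.41 at 3 days and 0.21 at 1 day. DESeq2 called Cd44 at neither time (DESeq2 adjusted p = 0.19 at 3 days and 0.095 at 1 day). Vim had 1281 and 1208 CPM with BML-260 at 3 days, against 1409 and 1390 CPM with DMSO, a log2 fold change of -0.17 (edgeR: SE 0.047, adjusted p = 0.006). At 1 day it had 848 and 876 CPM with BML-260, against 1059 and 1109 CPM with DMSO, a log2 fold change of -0.33 (edgeR: SE 0.048, adjusted p = 1.2e-05). The call of Vim at 1 day held without each library in turn. S100a4 had 40.7 and 43.3 CPM with BML-260 at 3 days, against 53.7 and 55.0 CPM with DMSO, a log2 fold change of -0.37 (edgeR: SE 0.069, adjusted p = 0.00013). At 1 day it had 38.3 and 36.4 CPM with BML-260, against 41.8 and 36.7 CPM with DMSO. There the libraries overlapped, and the log2 fold change was -0.07 (edgeR: SE 0.074, adjusted p = 0.58), with a 95% interval of -0.22 to 0.082.

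**Figure D2:**
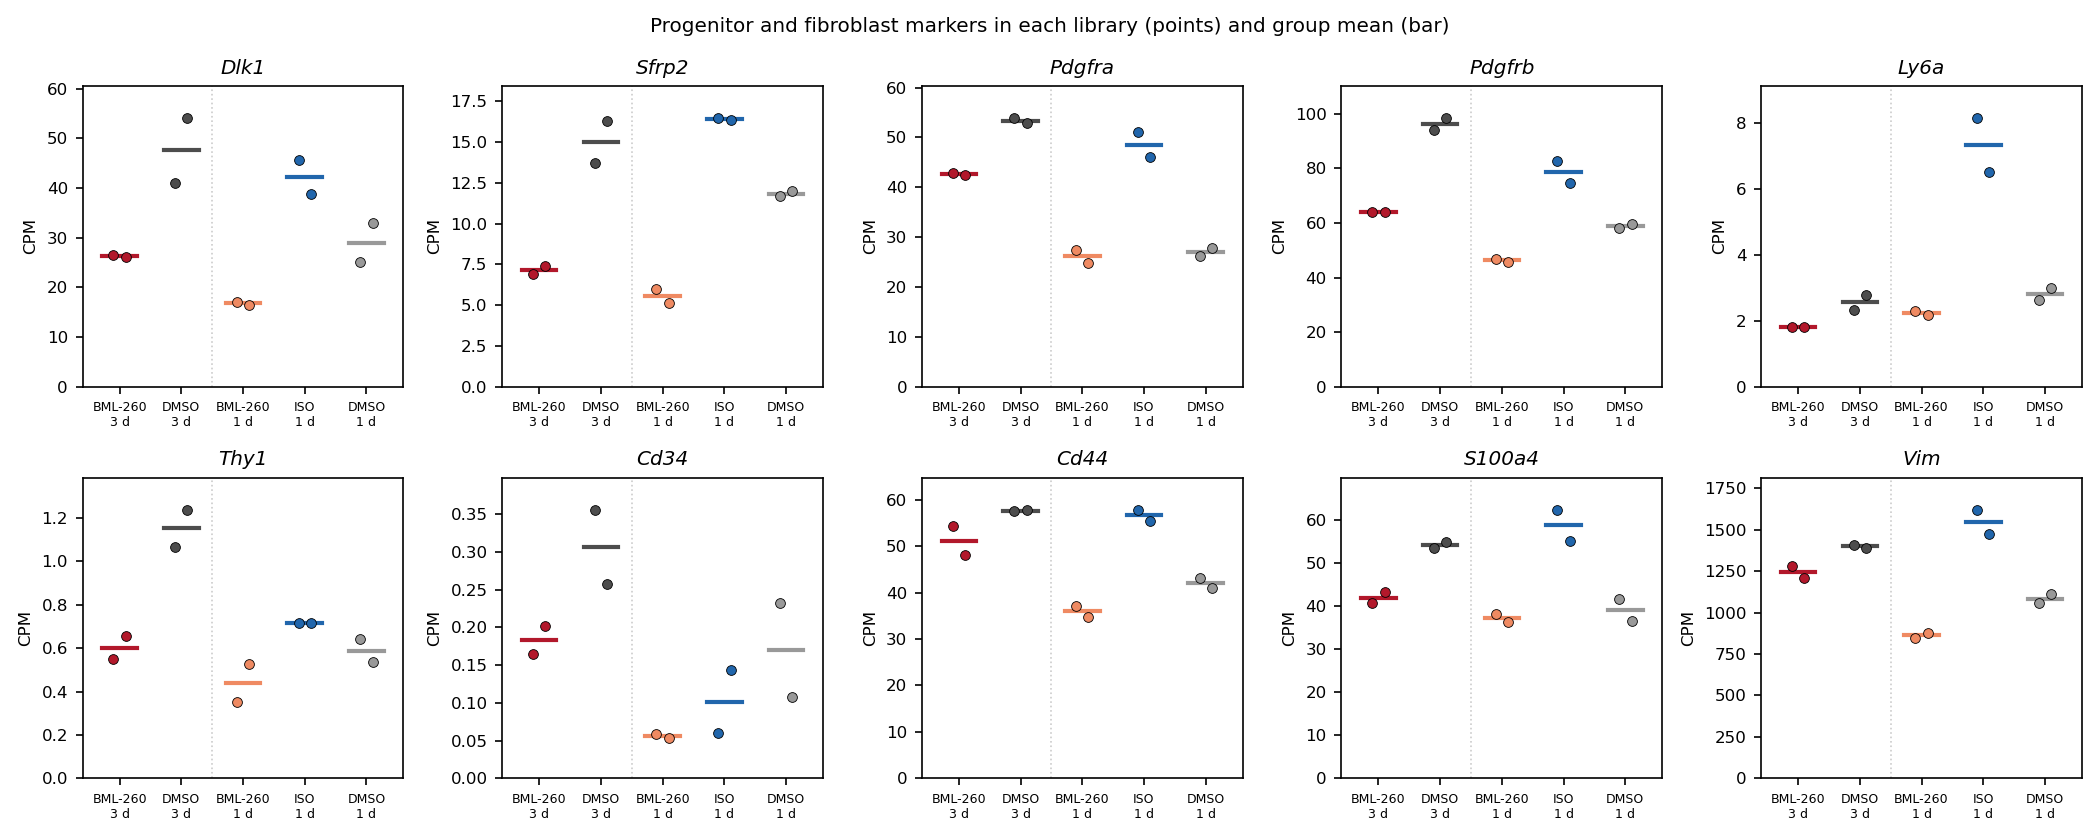
CPM of each marker in each library (points) and the mean of the 2 libraries (bar), with the groups of 3 days left of the dotted line and those of 1 day right of it. Sfrp2 lies at 5.12 to 7.40 CPM in the 4 libraries of BML-260 and at 11.7 to 16.5 CPM in the other 6, and Ly6a is highest in both libraries of ISO, at 8.14 and 6.49 CPM.

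Whether the effect of BML-260 changed between the times was tested as the difference of its log2 fold changes, 3 days minus 1 day. Of the 9 markers 0 were called by edgeR, where 8.44% of all genes were called, and DESeq2 called 0 of the 7 for which it gave an adjusted p. At an unadjusted p under 0.05 there were 4: S100a4 at -0.30 (edgeR: SE 0.10, adjusted p = 0.064), Pdgfra at -0.28 (edgeR: SE 0.10, adjusted p = 0.086), Pdgfrb at -0.24 (edgeR: SE 0.082, adjusted p = 0.063) and Vim at 0.16 (edgeR: SE 0.067, adjusted p = 0.14). The first 3 had the lower fold change at 3 days and Vim had it at 1 day. For Dlk1 the difference was -0.059 and for Sfrp2 0.031, with 95% intervals of -0.40 to 0.28 and -0.34 to 0.40. With upper-quartile scaling 2 were called, Pdgfrb (edgeR adjusted p = 0.043) and S100a4 (edgeR adjusted p = 0.047). A fit of the 4 groups concerned alone called Vim (edgeR adjusted p = 0.042), and without DMSO 1 day replicate 1 S100a4 was called at -0.40 (edgeR adjusted p = 0.025). Passing the test at 3 days and not at 1 day, as Pdgfra and S100a4 did, was therefore not shown to be a difference between the times in the fit over all libraries.

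ISO served as a further treatment at 1 day. There 8 of the 9 tested markers rose against DMSO, all but Thy1, and none fell, where 21.4% of all genes tested rose and 20.3% fell. Their median log2 fold change was 0.51. This comparison, that of BML-260 at 1 day with DMSO and that of DMSO over time all use the same 2 libraries of DMSO at 1 day, so they are not independent of each other.

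Ly6a had the largest log2 fold change with ISO among the 9. It had 8.14 and 6.49 CPM with ISO, against 2.62 and 3.01 CPM with DMSO at 1 day, and its log2 fold change was 1.36 (edgeR: SE 0.18, adjusted p = 7.9e-07), or 2.57-fold. The 2 libraries of ISO lay above the other 8, which held 1.81 to 3.01 CPM. Ly6c1, another gene of that family, rose by 1.81 (edgeR: SE 0.33, adjusted p = 7.4e-05) on the log2 scale. Ly6h fell, at -1.56 (edgeR: SE 0.34, adjusted p = 0.00049), and Ly6e was at 0.064 (edgeR: SE 0.061, adjusted p = 0.42). The 3 tested relatives of Ly6a thus did not move together, but Ly6c1 and Ly6h were scarce. Ly6c1 had 2.83 CPM with ISO and 0.80 CPM with DMSO, and Ly6h had 0.62 and 1.81 CPM. Pdgfra had 51.1 and 46.0 CPM with ISO, against 26.2 and 27.8 CPM with DMSO, and a log2 fold change of 0.84 (edgeR: SE 0.071, adjusted p = 3.7e-10). Pdgfrb had 82.7 and 74.4 CPM with ISO, against 58.0 and 59.7 CPM with DMSO, and a log2 fold change of 0.41 (edgeR: SE 0.057, adjusted p = 1.7e-06). Neither receptor's libraries overlapped.

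The other 5 called markers lay between 0.43 and 0.58 on the log2 scale. S100a4 had 62.4 and 55.3 CPM with ISO, against 41.8 and 36.7 CPM with DMSO, and a log2 fold change of 0.58 (edgeR: SE 0.07, adjusted p = 1.7e-07). Dlk1 had 45.7 and 38.8 CPM with ISO, against 25.2 and 32.9 CPM with DMSO, and a log2 fold change of 0.53 (edgeR: SE 0.11, adjusted p = 0.00027). Vim had 1620 and 1473 CPM with ISO, against 1059 and 1109 CPM with DMSO, and a log2 fold change of 0.51 (edgeR: SE 0.047, adjusted p = 2e-09). In each of these genes both libraries of ISO exceeded both of DMSO, and so they did for Sfrp2 at 0.47 (edgeR: SE 0.11, adjusted p = 0.001) and Cd44 at 0.43 (edgeR: SE 0.065, adjusted p = 5.7e-06). Thy1, at 0.718 and 0.716 CPM with ISO and 0.640 and 0.537 CPM with DMSO, did not overlap either. Its log2 fold change of 0.29 (edgeR: SE 0.41, adjusted p = 0.61) did not pass. Separation of 2 libraries from 2 therefore says little by itself, and its share over all genes was not counted. The 8 calls held without each library in turn.

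Set against ISO directly at 1 day, 8 of the 9 markers were lower with BML-260 and none was higher, where 22.8% of all genes tested were lower and 21.6% higher. The median log2 fold change was -0.84. Ly6a differed most, at -1.70 (edgeR: SE 0.19, adjusted p = 3.5e-08), then Sfrp2 at -1.56 (edgeR: SE 0.12, adjusted p = 9.4e-11) and Dlk1 at -1.32 (edgeR: SE 0.12, adjusted p = 7.7e-10). Vim, the most abundant marker, differed by -0.84 (edgeR: SE 0.048, adjusted p = 1.1e-13). Pdgfra, which did not pass between BML-260 and DMSO, was -0.89 (edgeR: SE 0.071, adjusted p = 9.9e-11), and S100a4 was -0.65 (edgeR: SE 0.07, adjusted p = 2.2e-08). Thy1 was -0.68 (edgeR: SE 0.44, adjusted p = 0.22) and did not pass.

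**Figure D3:**
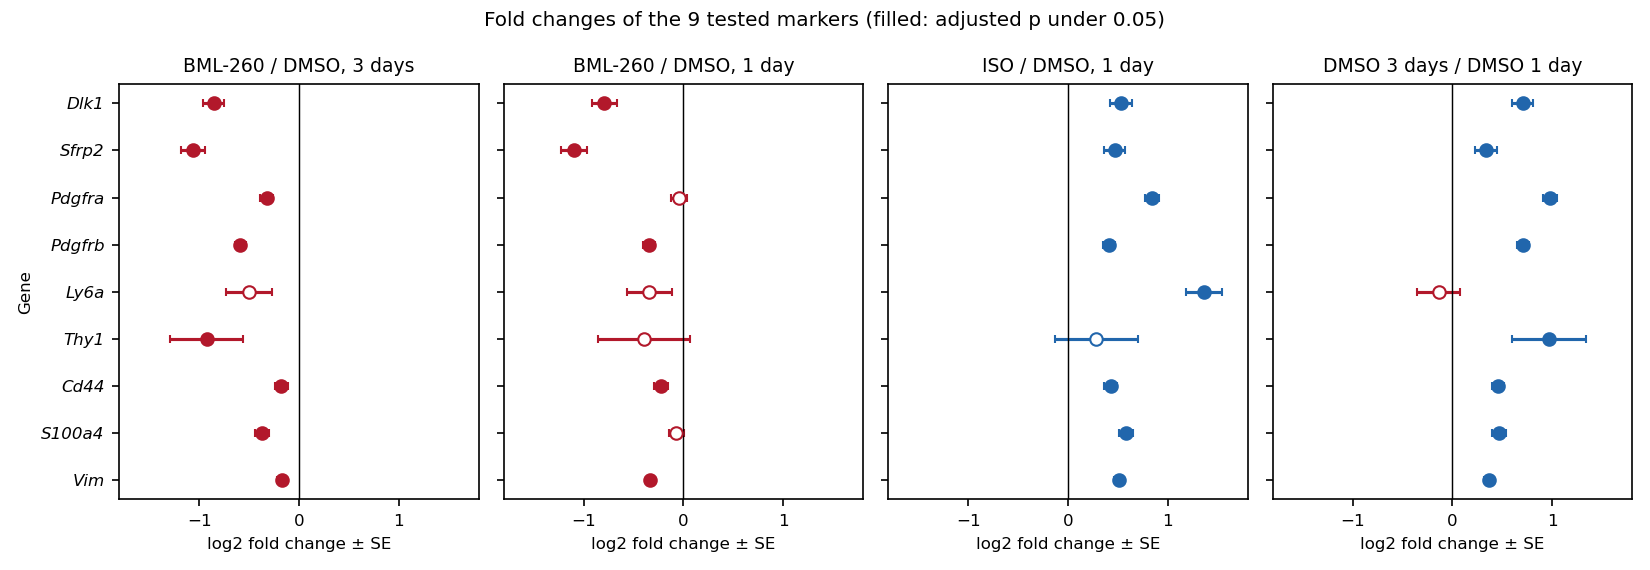
Log2 fold change with its SE (bars) of the 9 tested markers in 4 comparisons, filled where the edgeR adjusted p was under 0.05. With BML-260 all 9 lie left of 0 at both times, Sfrp2 farthest at 1 day (-1.10) and at 3 days (-1.06), and with ISO all 9 lie right of 0, Ly6a farthest (1.36).

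The markers differed between the times as well. Length of treatment, time in culture and harvest cannot be told apart between these groups. In DMSO alone 8 of the 9 were higher at 3 days than at 1 day, all but Ly6a, where 18.1% of all genes tested were higher and 16.8% lower. The median log2 fold change was 0.47. Pdgfra changed most among those with many counts, by 0.98 (edgeR: SE 0.07, adjusted p = 3.5e-11), so that its 53.9 and 52.8 CPM at 3 days stood against 26.2 and 27.8 CPM at 1 day. Dlk1 was at 0.71 (edgeR: SE 0.11, adjusted p = 7.7e-06) and Pdgfrb at 0.71 (edgeR: SE 0.056, adjusted p = 2.3e-10). Vim, Cd44 and S100a4 lay at 0.37, 0.46 and 0.47 on the log2 scale, with edgeR adjusted p of 7.9e-07, 3e-06 and 6.8e-06. The calls of Sfrp2 at 0.34 (edgeR: SE 0.11, adjusted p = 0.017) and of Thy1 at 0.97 (edgeR: SE 0.37, adjusted p = 0.045) were each lost when a library was left out, Sfrp2 without 3 of the 4 and Thy1 without any of them. Ly6a was at -0.14 (edgeR: SE 0.22, adjusted p = 0.66).

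With BML-260, 6 of the 9 were higher at 3 days than at 1 day, where 22.9% of all genes tested were higher and 23.4% lower, and the median was 0.46. Pdgfra was at 0.70 (edgeR: SE 0.072, adjusted p = 9.3e-09), Dlk1 at 0.65 (edgeR: SE 0.13, adjusted p = 0.00013), Vim at 0.53 (edgeR: SE 0.048, adjusted p = 9.1e-10), Cd44 at 0.51 (edgeR: SE 0.067, adjusted p = 6e-07) and Pdgfrb at 0.46 (edgeR: SE 0.06, adjusted p = 4.7e-07). Sfrp2 passed narrowly at 0.37 (edgeR: SE 0.14, adjusted p = 0.036) and missed the threshold without any 1 of 3 libraries. S100a4 at 0.17 (edgeR: SE 0.073, adjusted p = 0.055), Thy1 at 0.43 (edgeR: SE 0.46, adjusted p = 0.46) and Ly6a at -0.30 (edgeR: SE 0.24, adjusted p = 0.34) did not pass. The tests of the difference given above, 3 days minus 1 day of BML-260 against DMSO, are also those of whether change over time differed between BML-260 and DMSO.

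The order of the groups differed from gene to gene. BML-260 at 1 day had the lowest mean for 9 of the 10 genes, and against the next lowest group it passed for 5, Dlk1, Sfrp2, Pdgfrb, Cd44 and Vim. It did not pass for Pdgfra, S100a4 and Thy1 (edgeR adjusted p = 0.75, 0.58 and 0.63), and for Cd34 the mean rests on 1 count in either library. Dlk1 was highest with DMSO at 3 days, and it did not pass there against ISO (edgeR adjusted p = 0.23), nor did DMSO at 1 day against BML-260 at 3 days (edgeR adjusted p = 0.31). For Sfrp2 the order from the highest was ISO, DMSO at 3 days, DMSO at 1 day, BML-260 at 3 days and BML-260 at 1 day. The step between BML-260 at 3 days and DMSO at 1 day was the largest, at 0.72 on the log2 scale in favour of DMSO (edgeR adjusted p = 2.4e-05), and ISO did not pass against DMSO at 3 days (edgeR adjusted p = 0.42). For Pdgfra, DMSO at 3 days, ISO and BML-260 at 3 days lay above DMSO and BML-260 at 1 day, and the neighbours within either set did not pass (edgeR adjusted p = 0.13, 0.055 and 0.75). The outer groups of the first set did differ, BML-260 at 3 days being below DMSO at 3 days (-0.32, edgeR adjusted p = 0.00028). Vim and Cd44 had both groups of 3 days and ISO above DMSO at 1 day, with BML-260 at 1 day below it. For Ly6a ISO stood alone at the top, and no neighbours among the other 4 groups passed (edgeR adjusted p of 0.34 to 0.66). The outermost of these 4, DMSO at 1 day (2.81 CPM) and BML-260 at 3 days (1.81 CPM), were not compared directly.

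Across the 10 libraries, log2 CPM of Cd44 and Vim correlated most among the tested markers (Pearson r = 0.958) and Ly6a and Thy1 least (r = 0.186). Of 9108 genes with a mean of at least 10 CPM that are neither predicted loci nor among the 10 markers, the gene most like each in its log2 CPM was Pde2a for Sfrp2 (r = 0.997), Tnc for Dlk1 (r = 0.988), Itga5 for Vim (r = 0.988), Ston1 for Pdgfrb (r = 0.989), Cald1 for Cd44 (r = 0.985) and Klf6 for Pdgfra (r = 0.983). For S100a4 it was Samhd1 (r = 0.974), for Ly6a Pnp (r = 0.973) and for Thy1 Map4k3 (r = 0.967). These values describe 10 libraries that fall into 5 groups, share treatments and time, and were searched for the highest value.

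Other progenitor and fibroblast markers were less uniform. Of 20 listed 15 were tested. With BML-260 at 3 days 5 fell and 1 rose, where 18.3% of all genes tested fell and 17.3% rose. The median log2 fold change was -0.11. Dcn, among those that fell, was scarce at 0.233 CPM with BML-260 and 0.665 CPM with DMSO (edgeR adjusted p = 0.048). Fbn1, the microfibril protein fibrillin, was at -0.99 (edgeR: SE 0.051, adjusted p = 3.9e-14), Cd9, a tetraspanin, at -0.53 (edgeR: SE 0.078, adjusted p = 5.5e-06) and Prrx1, a transcription factor of mesenchymal cells, at -0.37 (edgeR: SE 0.046, adjusted p = 5.1e-07), while Nt5e, the ecto-nucleotidase CD73, was higher by 0.78 (edgeR: SE 0.18, adjusted p = 0.0013). At 1 day 3 fell, Fbn1, Prrx1 and Cd9, at -0.76, -0.41 and -0.40 on the log2 scale, and none rose, with a median of -0.35. Over all genes tested 8.62% fell and 9.32% rose there. With ISO 10 of the 15 rose and none fell, where 21.4% of all genes tested rose and 20.3% fell. The median was 0.30, and Fbn1 was at 0.74 (edgeR: SE 0.051, adjusted p = 9.1e-12). Some of these calls rest on scarce genes. Dcn had 0.777 CPM with ISO and 0.085 CPM with DMSO, and Eng had 0.849 and 0.280 CPM. In DMSO 7 were higher and 1, Nt5e, was lower at 3 days than at 1 day. The shares over all genes tested were 18.1% higher and 16.8% lower.

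Genes tied to single markers gave a mixed picture. Of all genes tested, 18.3% fell and 17.3% rose with BML-260 at 3 days, and 8.62% fell and 9.32% rose at 1 day. The shares with ISO were 20.3% and 21.4%. Meg3, a long noncoding RNA of the imprinted cluster that holds Dlk1 and made from the maternal copy where Dlk1 is made from the paternal one, was at -0.49 (edgeR: SE 0.17, adjusted p = 0.031) with BML-260 at 3 days, -0.74 (edgeR: SE 0.23, adjusted p = 0.025) at 1 day and 0.97 (edgeR: SE 0.18, adjusted p = 0.00011) with ISO. Adam17, the protease that sheds Dlk1, had -0.079 (edgeR: SE 0.054, adjusted p = 0.28), -0.082 (edgeR: SE 0.055, adjusted p = 0.34) and 0.13 (edgeR: SE 0.054, adjusted p = 0.053) in the same comparisons and did not pass in any. Of the Wnt antagonists related to Sfrp2, Sfrp1 fell with BML-260 at 3 days (-0.86, edgeR SE 0.16, adjusted p = 0.00014) and was at -0.18 at 1 day without passing. Sfrp4 did not pass with BML-260 at either time, and with ISO both rose, Sfrp4 by 1.19 (edgeR: SE 0.20, adjusted p = 2.5e-05) and Sfrp1 by 0.59 (edgeR: SE 0.16, adjusted p = 0.0043). Of 6 genes that make hyaluronan or link Cd44 to actin, only Msn, moesin, was called with BML-260 at 3 days, at 0.16 (edgeR: SE 0.043, adjusted p = 0.0039), and none at 1 day. Among 8 tested S100 genes other than S100a4, 4 fell and none rose with BML-260 at 3 days, S100a10 at -0.23 and S100a11 at -0.20 on the log2 scale. With ISO 1 of the 8 rose, S100a6 by 0.56 (edgeR: SE 0.051, adjusted p = 1.7e-09), and 3 fell, S100a1 at -0.53 (edgeR: SE 0.046, adjusted p = 8.8e-10), S100b at -1.10 (edgeR: SE 0.25, adjusted p = 0.00099) and S100a13 at -0.23 (edgeR: SE 0.064, adjusted p = 0.0056). Of 6 tested intermediate filament genes other than Vim, Nes, nestin, fell with BML-260 at 3 days (-0.57, edgeR SE 0.082, adjusted p = 4.9e-06) and so did Lmnb1, a lamin of the nucleus (-0.33, edgeR SE 0.063, adjusted p = 0.00019).

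Regulators of fat cell formation were measured beside the markers. Among all genes tested, 18.3% fell and 17.3% rose with BML-260 at 3 days, and 8.62% fell and 9.32% rose at 1 day. The shares with ISO were 20.3% and 21.4%. Of 8 tested genes known to hold it back, 3 fell with BML-260 at 3 days and none rose, Wnt5a at -0.49 (edgeR: SE 0.096, adjusted p = 0.00022), Hes1 at -0.43 (edgeR: SE 0.13, adjusted p = 0.0099) and Klf2 at -0.77 (edgeR: SE 0.24, adjusted p = 0.013). At 1 day Nr2f2 (-0.48, edgeR SE 0.11, adjusted p = 0.0036) and Sox9 (-1.52, edgeR SE 0.41, adjusted p = 0.0091) fell. Sox9 was scarce there, at 0.48 CPM with BML-260 and 1.37 CPM with DMSO. Neither passed at 3 days, with Nr2f2 at -0.23 (edgeR adjusted p = 0.11) and Sox9 at -0.32 (edgeR adjusted p = 0.42). With ISO 2 rose, Sox9 at 0.88 (edgeR: SE 0.28, adjusted p = 0.013) and Gata3 at 0.88 (edgeR: SE 0.34, adjusted p = 0.037), and 2 fell, Wnt5a at -0.67 (edgeR: SE 0.096, adjusted p = 2.9e-06) and Hes1 at -0.48 (edgeR: SE 0.12, adjusted p = 0.0017). Of 10 tested factors that drive commitment, 7 fell and none rose with BML-260 at 3 days, and likewise 7 and none at 1 day. Cebpa, a master regulator of fat cells, was at -0.94 (edgeR: SE 0.067, adjusted p = 2.3e-11) and Pparg, the nuclear receptor that drives the fat cell program, at -0.45 (edgeR: SE 0.042, adjusted p = 2.8e-09) at 3 days. With ISO 5 of these factors fell and 1 rose. The difference between the factors that hold fat cell formation back and those that drive it was not tested.

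Marker lists of other cells moved beside the markers, and their part in the results was not tested. The shares of all genes tested that fell and rose were 18.3% and 17.3% with BML-260 at 3 days. They were 8.62% and 9.32% at 1 day, and 20.3% and 21.4% with ISO. Of 7 tested smooth muscle and pericyte markers, cells that Pdgfrb also marks, 6 fell with BML-260 at 3 days and 6 at 1 day, with Acta2, smooth muscle actin, at -1.26 (edgeR: SE 0.067, adjusted p = 1.2e-13) and -0.79 (edgeR: SE 0.072, adjusted p = 1.4e-08). Their summed level was 240.1 to 274 CPM with BML-260 and 414.6 to 429.7 CPM with DMSO at 3 days, and 255 to 262.3 CPM with BML-260, 342.6 to 381.1 CPM with ISO and 378.2 to 382.7 CPM with DMSO at 1 day. Tagln, a calponin-like protein of contractile cells, rose with ISO (0.91, edgeR SE 0.081, adjusted p = 1.1e-09) while Mcam, a pericyte surface protein, fell (-0.30, edgeR SE 0.069, adjusted p = 0.00078). Mature fat cell markers, 14 in all, were split with BML-260 at 1 day, where 4 rose, with Fabp4 at 0.71 (edgeR: SE 0.041, adjusted p = 3.8e-12), and 5 fell. At 3 days 3 rose and 8 fell, with Adipoq at -1.06 (edgeR: SE 0.061, adjusted p = 4.7e-13), and with ISO 2 rose and 11 fell. Their sum was 12850 to 13140 CPM with BML-260 and 13470 to 13810 CPM with DMSO at 3 days, and 21080 to 21920 CPM with BML-260, 12970 to 13720 CPM with ISO and 17690 to 17990 CPM with DMSO at 1 day. At 1 day Fabp4 averaged 10440 CPM with BML-260, 4339 CPM with ISO and 6393 CPM with DMSO. Without Fabp4 the other 13 markers summed to 10770 to 11360 CPM with BML-260, 8675 to 9340 CPM with ISO and 11420 to 11470 CPM with DMSO at 1 day, so that BML-260 then lay just below DMSO. At 3 days they summed to 7201 to 7413 CPM with BML-260 and 8947 to 9134 CPM with DMSO.

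Brown adipocyte markers moved as well, and their part in the results was not tested either. Over all genes, 17.3% rose and 18.3% fell with BML-260 at 3 days, and 9.32% rose and 8.62% fell at 1 day. The shares with ISO were 21.4% and 20.3%. Of 7 tested, 3 rose and 2 fell with BML-260 at 3 days, with Ucp1 at 1.32 (edgeR: SE 0.097, adjusted p = 4.6e-11) and Elovl3, an enzyme that lengthens fatty acids, at 1.28 (edgeR: SE 0.11, adjusted p = 1.1e-09). At 1 day 3 rose, Ucp1 at 1.32 (edgeR: SE 0.13, adjusted p = 5.8e-08) among them, and Kcnk3, a potassium channel, fell at -0.41 (edgeR: SE 0.055, adjusted p = 4.6e-06). With ISO 2 rose, Ucp1 at 2.15 (edgeR: SE 0.12, adjusted p = 2e-13) and Cidea, a lipid droplet protein, at 0.27 (edgeR: SE 0.056, adjusted p = 0.00029), and 2 fell. The 8 markers with a row summed to 782.5 to 812.5 CPM with BML-260 and 777.6 to 801.3 CPM with DMSO at 3 days. At 1 day they summed to 748.1 to 798.3 CPM with BML-260, 712.9 to 725.9 CPM with ISO and 758.9 to 761.7 CPM with DMSO.

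Proliferation genes were measured throughout, with a sum of 1857 to 1869 CPM with BML-260 and 1936 to 1967 CPM with DMSO at 3 days, and 1685 to 1711 CPM with BML-260, 2047 to 2055 CPM with ISO and 1864 to 1960 CPM with DMSO at 1 day. Of 8 tested, 6 fell with BML-260 at 1 day, with Mki67 at -0.27 (edgeR: SE 0.047, adjusted p = 0.00017). At 3 days 2 fell and 1 rose, and with ISO 4 rose and 1 fell. Over all genes tested, 8.62% fell and 9.32% rose with BML-260 at 1 day, and 18.3% and 17.3% at 3 days. The shares with ISO were 21.4% higher and 20.3% lower. The 5 endothelial markers with a row summed to 0.658 to 1.53 CPM in a library, most of it from Pecam1, which had 8 to 25 counts, was tested and did not pass in any comparison, while Cdh5 and Emcn had at most 1 and 2 counts. The 4 T cell markers with a row summed to 0 to 0.155 CPM. Tie1, Erg, Cd3g, Myod1, Myog and Myf5 had no row under these symbols, nor did the macrophage markers Adgre1 and Ptprc. Of skeletal muscle, Ckm had at most 1 count and Actn3, an actinin of fast muscle fibres, had 4 to 16 counts. Actn3 was higher at 3 days than at 1 day with BML-260 (1.38, edgeR SE 0.50, adjusted p = 0.026). The 5 macrophage markers with a row summed to 6.65 to 10.5 CPM, nearly all from Cd68 and Cd14, and Itgam had at most 1 count. Cd68, a protein of lysosomes, rose with BML-260 at 3 days (0.72, edgeR SE 0.17, adjusted p = 0.0012) and with ISO (1.06, edgeR SE 0.18, adjusted p = 2.4e-05).

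**Figure D4:**
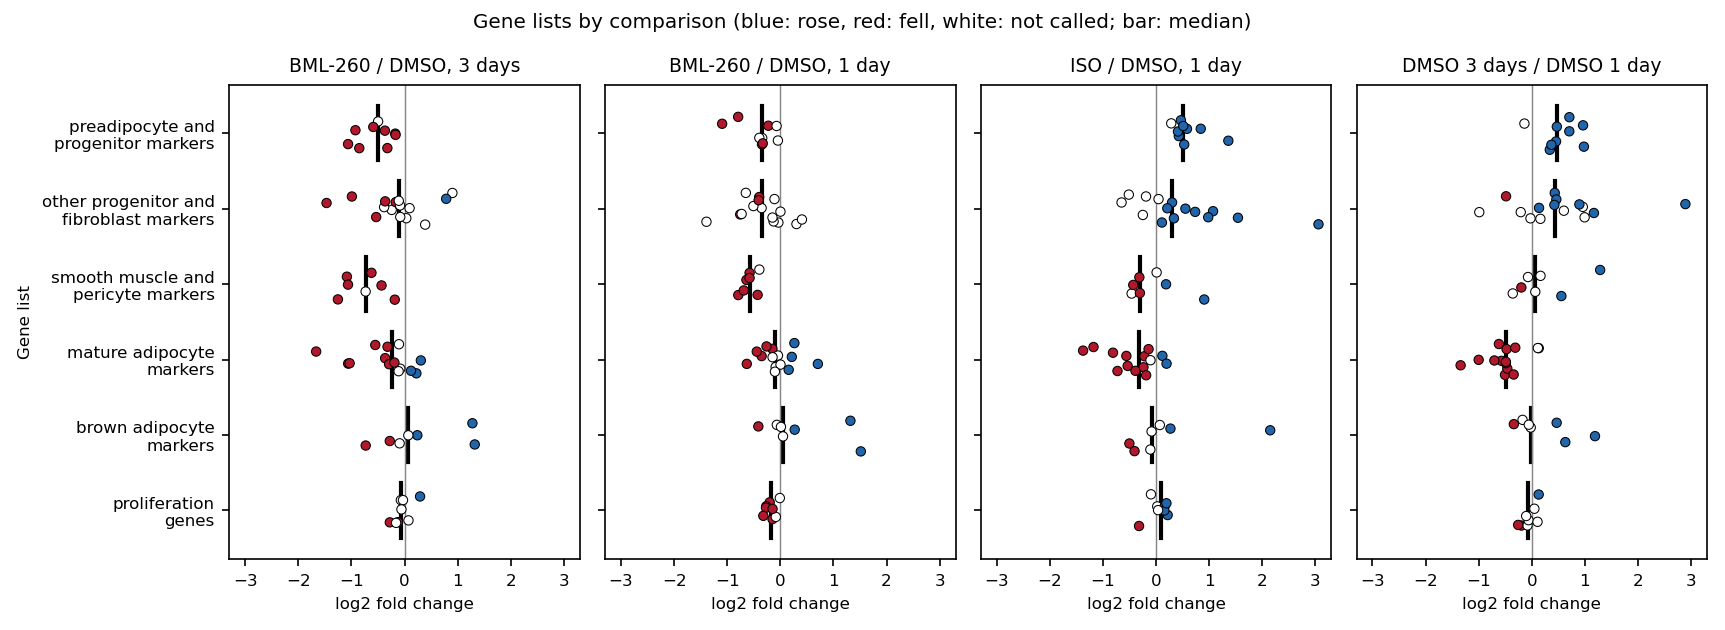
Log2 fold change of each tested gene of 6 lists in 4 comparisons, with the list's median as a bar, blue where the gene rose, red where it fell and white where it did not pass. Progenitor markers have medians of -0.50 (BML-260 at 3 days), -0.34 (BML-260 at 1 day), 0.51 (ISO) and 0.47 (DMSO over time), and mature fat cell markers have -0.24, -0.094, -0.31 and -0.49 in the same panels.

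The authors' deposited table of genes changed by BML-260 at 3 days names 6 of the 10 markers, at log2 fold changes of -0.84 for Sfrp2, -0.76 for Dlk1, -0.55 for Pdgfrb, -0.34 for S100a4, -0.29 for Pdgfra and -0.15 for Vim. The authors' deposited table for 1 day names 4, at -0.65 for Sfrp2, -0.60 for Dlk1, -0.32 for Vim and -0.31 for Pdgfrb. All of these are smaller in size than the edgeR values above, and the cause was not tested. The authors' values rest on the same counts, so they are not independent of those above. Cd44, called by edgeR at both times, and Thy1, called at 3 days, stand in neither of the authors' deposited tables. Their values above were near the threshold.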

How the data were processed

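RNA of 10 libraries of mouse brown adipocytes was sequenced on Illumina machines, per the labels. The submitters' processing notes name DESeq2, bedtools, TopHat2 2.1.1 and bcl2fastq 2.17.1.14, and the builds mm10 and mm9 without a role. For the strand setting, the annotation and the counting rule, nothing is stated in the labels or file headers. The authors deposited whole-number counts per gene symbol, and tables of changed genes with a log2 fold change and a p-value per gene, per the file headers. Of the 7 tables, 4 were not used here. Libraries were grouped by their titles. The 10 genes and all gene lists were chosen with earlier results of these data known, and no list was tested as a set.

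Counts were fitted with edgeR 4.0.16 in R 4.3.3: TMM scaling, filterByExpr at 10 counts or more with at least 15 in total, 1 mean per group over all 10 libraries with 5 residual degrees of freedom, the quasi-likelihood test, and Benjamini-Hochberg adjustment over the 15212 genes tested. The SE was taken as the size of the log2 fold change over the square root of F. CPM uses TMM-scaled library sizes, and CPM per kb the union of a gene's exons in GENCODE M21. Libraries of the same group differed by a mean chi-square of 1.92 to 3.09 per gene, where 1 is counting error alone, and log2 CPM correlated at r of at least 0.994. The fit was tested on simulated data. Named genes are the 10 markers, up to 4 genes of smallest p per list and comparison, the gene most like each marker, and Dusp22, Ucp1 and Adipoq for context. Dusp22 itself lay at 64.0 to 80.3 CPM in every library. Alternatives were DESeq2 1.42.0, its size factors, upper-quartile scaling, no filter, a fit of the compared groups alone, a replicate block and leaving out each library.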

Additional observations from a re-analysis of the deposited data

How the results depend on the processing

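Of 716 values of single markers under the alternatives, 665 kept their direction and their side of the threshold, 34 lost the call, 8 gained one and 9 changed sign. None of those 9 was called, and each came from leaving out a library. With BML-260 at 1 day, the values without each library ranged from -0.12 to 0.032 for Pdgfra and from -0.17 to 0.026 for S100a4. For the effect at 3 days minus that at 1 day they ranged from -0.27 to 0.18 for Dlk1, from -0.083 to 0.19 for Sfrp2, from -0.038 to 0.14 for Cd44 and from -0.26 to 2.44e-05 for Ly6a. In the same comparison 2 markers were called with upper-quartile scaling and 1 with the compared groups alone, against 0. DESeq2 called 1746 genes with BML-260 at 1 day, against 2728 by edgeR, and 721 for the difference between times, against 1284. The cause of these differences was not tested. Upper-quartile scaling moved the share of calls that were higher to 40.3% with ISO, against 51.3%, and to 38.5% with BML-260 at 3 days, against 48.5%, and it shifted the median of all genes by under 0.1.

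Leaving out a library leaves 1 in its group, which the fit assumes to vary like the other groups. Without each library in turn, 4 to 5 markers were called with BML-260 at 1 day, 5 to 7 at 3 days, 0 to 1 for the difference between them, 8 with ISO, 8 between BML-260 and ISO, 6 to 7 for DMSO over time and 5 to 6 for BML-260 over time. All genes called numbered 1235 to 2384, 3811 to 4144, 659 to 1163, 4603 to 5545, 5221 to 5948, 3803 to 4096 and 5580 to 6111 in that order.

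Same-numbered libraries did not deviate together (r of -0.034 to 0.058 over 10 pairs of groups). Each r rests on a single difference between libraries per group, which cannot settle whether the numbers pair them. With the replicate block 5, 7, 0, 8, 8, 8 and 7 markers were called in that order: Thy1 at 3 days was lost (edgeR adjusted p = 0.051) and S100a4 over time with BML-260 gained (edgeR adjusted p = 0.045).

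Depth limits Cd34, Thy1 and Ly6a, with at most 7, 24 and 136 counts in a library. With 2 libraries a group, effects as small as those of Cd44 and of Vim at 3 days lie within reach of a single library.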
